A study of Rattus norvegicus with 4 samples.

Results

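Neurotrophins, their receptors and other growth factors of the brain were followed through the 4 arrays of a study of depressive-like behaviour in male rats. The genes were Bdnf and Ntf3 (neurotrophins), Ntrk2, Ntrk3 and Ngfr (neurotrophin receptors), Vgf (a secreted precursor of neuropeptides), Fgf2 and Igf1 (growth factors) and Igf1r (the receptor of Igf1). They were taken by symbol from the probes whose RefSeq accession maps to them, and all 9 were on the array, among 15443 named genes. They have 13 probes and 54 spots per array, and each gene was represented by its brightest probe.

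The study scored 106 rats in the forced swimming test, in which time spent immobile in water is read as a depressive-like behaviour, and took tissue from 50 of them 1 week later, after the blood had been rinsed out with saline. The groups were cerebellum and prefrontal cortex of rats with average scores, called control, and of rats with depressive-like scores, called depressive. Each of these 4 groups was 1 RNA pool of 4 rats on 1 single-colour Agilent array, and no treatment other than the swim test is named. Strain and age are not given in the labels, nor whether the tissues came from the same animals. A comparison of states within a tissue sets 1 pool against another and has no replicate check. The ± beside a signal is the SD over repeated spots of a probe and covers technical error alone.

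The deposited value table and the scanner files disagree on a pair of samples. The file attached to control prefrontal cortex follows the value table's column for depressive cerebellum and the reverse, at correlations of 0.99996 and 0.99999 over 23207 probes, against 0.933 for either file with the column of its own sample. The value table was followed, and the names of the scans give the same reading. All 10 tested markers of cerebellar neurons were then at least 2-fold higher in cerebellum, and 8 of 9 tested markers of cortical neurons were lower there. These markers say nothing on the state of a pool. If the files were right as attached, what is printed here as a difference between tissues would be one between states. That would hold for these neuron markers too. All 9 genes were well above background on all 4 arrays, 0 of their spots were saturated, and 2 outlier spots of Fgf2 in control prefrontal cortex were left out.

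Neurotrophins are secreted proteins that support the survival of neurons and the growth and strength of their synapses. Each acts through a Trk receptor tyrosine kinase, Bdnf mainly through TrkB (Ntrk2) and Ntf3 mainly through TrkC (Ntrk3), while Ngfr, the low-affinity neurotrophin receptor, binds all of them and their precursors. Bdnf and Vgf are textbook examples of genes whose transcription rises with neuronal activity, in part through the cAMP response element-binding factor CREB. Bdnf, Fgf2, Igf1 and Vgf are among the growth factors most often measured in work on depression and stress.

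Upstream sequences were taken from RefSeq on assembly GRCr8, and 3 are shown because they are those of the 9 genes' sequences that hold the CREB motif or its core. The 250 bases before a start are given 5′ to 3′ in the direction of the gene, from chr12:25277021-25277270 (minus strand) for Vgf, from chr3:116637608-116637857 (plus strand) for Bdnf and from chr2:122164204-122164453 (plus strand) for Fgf2. Bdnf has 6 such sequences, and the one with a match is shown. Capitals mark the palindromic cAMP response element TGACGTCA, its core TGACG on either strand (written CGTCA on the opposite strand, and contained in the full element), and TATAAA in the gene's direction.
Vgf: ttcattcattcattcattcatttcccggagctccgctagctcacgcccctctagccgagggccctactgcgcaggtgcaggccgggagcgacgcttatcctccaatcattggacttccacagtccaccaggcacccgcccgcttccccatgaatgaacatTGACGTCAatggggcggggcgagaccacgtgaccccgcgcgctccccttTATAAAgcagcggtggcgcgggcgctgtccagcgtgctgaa
Bdnf: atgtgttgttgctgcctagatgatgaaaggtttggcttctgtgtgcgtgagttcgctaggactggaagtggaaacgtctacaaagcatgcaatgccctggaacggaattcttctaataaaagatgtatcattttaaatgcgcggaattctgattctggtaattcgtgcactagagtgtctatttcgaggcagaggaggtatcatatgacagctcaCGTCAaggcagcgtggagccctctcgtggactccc
Fgf2: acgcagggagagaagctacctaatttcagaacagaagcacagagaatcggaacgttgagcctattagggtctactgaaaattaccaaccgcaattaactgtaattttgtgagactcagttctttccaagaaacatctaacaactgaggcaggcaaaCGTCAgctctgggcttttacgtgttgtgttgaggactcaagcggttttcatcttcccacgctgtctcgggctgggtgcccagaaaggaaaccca
Of 13 upstream sequences of 6 members, 1 holds the full element, that of Vgf, which begins 90 bases before the start, with TATAAA at 41 bases. The core is found in 3, those of Vgf, Bdnf (35 bases before the start) and Fgf2 (94 bases). Among 33469 upstream sequences of the same length, 1.59% hold the full element, 18.2% the core and 8.06% TATAAA. A match describes letters in this window and not a site in use. No upstream sequence was matched for Ntrk2, Ntrk3 and Ngfr.

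**Figure D1:**
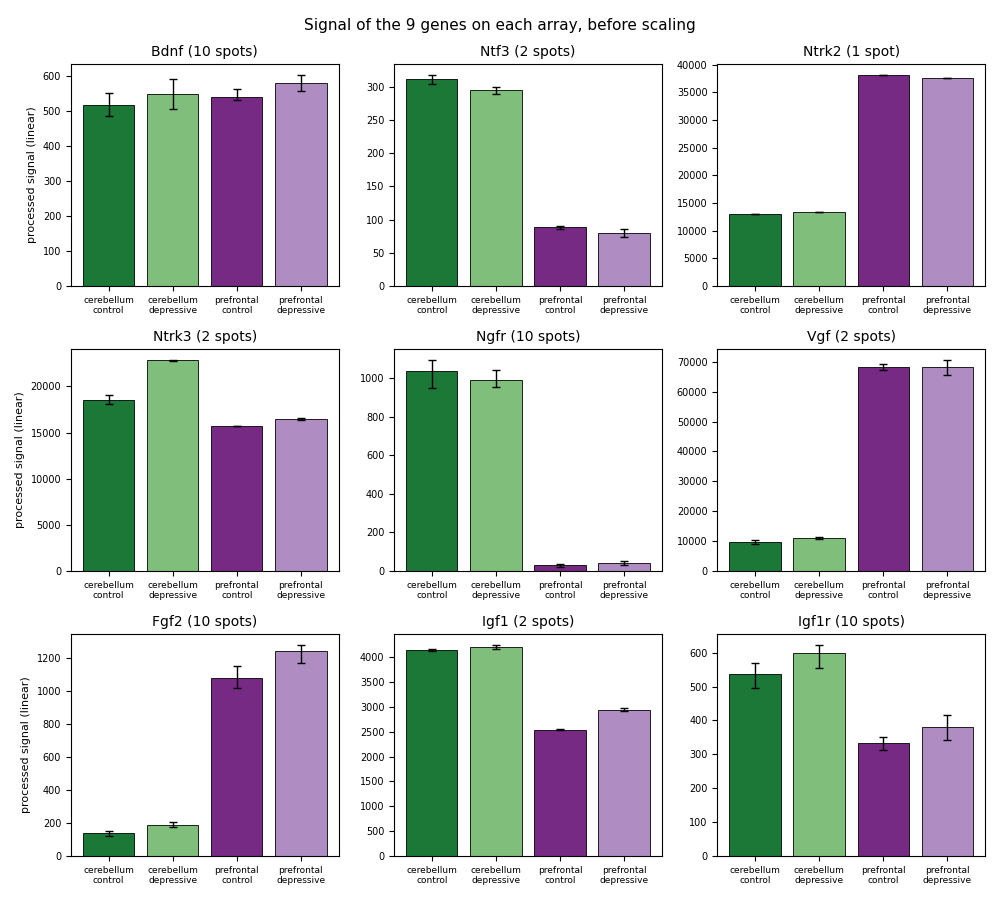
Processed signal (linear, before scaling between arrays) of each gene's brightest probe on the 4 arrays, as the mean over spots, with whiskers from the lowest to the highest spot. Ngfr was at 991 or more on both cerebellum arrays and at 43.4 or less on both prefrontal cortex arrays, Vgf and Fgf2 were higher on both prefrontal cortex arrays, and the 4 Bdnf bars lie between 516 and 581.

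The first question was how each gene differed between cerebellum and prefrontal cortex. Signals of a tissue are given with the control pool first and the depressive pool second. Bdnf, brain-derived neurotrophic factor, gave 516 ± 19.1 (SD, 10 spots) and 549 ± 26.7 in cerebellum, against 541 ± 9.76 and 581 ± 12.9 in prefrontal cortex. Before scaling the spots of the tissues overlapped in both states. The 75th percentile to which arrays were scaled was higher in cerebellum by 0.36 (log2) in control and 0.42 in depressive pools. A difference of cerebellum minus prefrontal cortex of -0.07 and -0.08 before scaling thus became -0.43 (SE between spots 0.02) and -0.50 (0.02). A limma fit of tissue with state as a block gave -0.46 (SE 0.05, adjusted p = 0.00456), a 1.38-fold lower level in cerebellum relative to the array's 75th percentile. The fit takes the control and the depressive pool as the replicates of a tissue, on 4 arrays with 1 residual degree of freedom. That residual is how far the tissue difference varied between states, and limma draws its size toward a spread common to all genes. The p-values of the fit, for tissue and for state, thus do not measure the spread between rats or between pools of the same group. The fit called 72.5% of 11623 genes, so that a call by itself sets a gene little apart. Among genes within 0.5 of Bdnf in mean log2 level, 56.0% differed as much between the control pools.

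Ntf3, neurotrophin-3, was higher in cerebellum. Its signal was 312 ± 9.37 (2 spots) and 295 ± 7.72 there, and 88.2 ± 2.43 and 80.1 ± 8.36 in prefrontal cortex. All cerebellum spots lay above all prefrontal cortex spots. The limma fit gave a 2.76-fold higher level (log2 1.46, SE 0.05, adjusted p = 0.000449), with 1.46 in control and 1.47 in depressive pools. After normexp background correction the difference was 0.94, which is under 2-fold. Ntf4, another neurotrophin, was not well above background on all arrays.

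Among receptors, Ntrk2 (TrkB) was lower in cerebellum. Its brightest probe, a single spot, read 13031 and 13384 in cerebellum, and 38170 and 37606 in prefrontal cortex. By limma Ntrk2 had a 3.76-fold lower level in cerebellum (log2 -1.91, SE 0.05, adjusted p = 0.000304), at -1.91 in both states. The other two Ntrk2 probes gave smaller differences. These were -1.58 in control and -1.66 in depressive pools for A_64_P058883, listed under the same accession as the brightest probe, and -0.84 and -0.95 for A_42_P631184, listed under another transcript. The 3 probes thus had the same sign and differed in size, and the mean over them was -1.48 in the fit. TrkB is made as a full receptor and as forms without the kinase domain, and the form that each probe reads is not known here.

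Ntrk3 (TrkC) did not pass the test. Its brightest probe gave 18568 ± 669 (2 spots) and 22841 ± 49.2 in cerebellum, and 15712 ± 2.67 and 16439.5 ± 140 in prefrontal cortex. Before scaling both cerebellum arrays were above both prefrontal cortex arrays. After scaling the difference was -0.12 in control and 0.06 in depressive pools. In the limma fit Ntrk3 had -0.03 (95% interval -0.24 to 0.18, adjusted p = 0.707), and its sign was positive under median scaling (0.06), quantile normalization (0.13), the value table and the mean over probes (0.01 each). The second Ntrk3 probe gave 0.03 and 0.06.

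Ngfr had the largest difference of the 9 genes. It gave 1038 ± 44.4 (10 spots) and 991 ± 33.1 in cerebellum, and 31.1 ± 5.52 and 43.4 ± 7.85 in prefrontal cortex, where 9 and 10 of the 10 spots were well above background. No prefrontal cortex spot exceeded 53.4, and the lowest cerebellum spot was at 950.1. The limma fit gave a 21.4-fold higher level in cerebellum (95% interval 15.0 to 30.4, log2 4.42, SE 0.17, adjusted p = 0.000555). The size moved with the background correction, and normexp gave 2.96. Among 1042 genes of similar mean level, 1.15% differed as much between the control pools. All 12 meningeal and fibroblast markers were called higher in cerebellum as well, with a median of 1.37. Their signals, summed before scaling, were 395797 and 470667 there against 68225 and 137357 in prefrontal cortex. All 10 tested cerebellar neuron markers and all 6 tested choroid plexus markers were called higher too, with medians of 5.70 and 5.10. Oligodendrocyte markers had a median of 0.88. Those of astrocytes, microglia, endothelium, blood and cortical neurons had negative medians, from -0.15 to -2.67. The part of any of these cells in the level of Ngfr was not tested, and in bulk tissue fewer cells of a type cannot be told from less RNA per cell.

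Vgf, which neurons cleave into peptides and release with other neuropeptides, was lower in cerebellum. Its signal was 9667 ± 801 (2 spots) and 11124 ± 536 in cerebellum, and 68198 ± 1343 and 68174 ± 3480 in prefrontal cortex. The tissues did not overlap. By limma Vgf had an 8.61-fold lower level (95% interval 7.54 to 9.84, log2 -3.11, SE 0.06, adjusted p = 0.000249). Among 581 genes of similar level, 1.38% differed as much between the control pools.

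Fgf2, basic fibroblast growth factor, which in brain comes largely from astrocytes, was also lower in cerebellum. It gave 137 ± 12.3 (10 spots) and 189 ± 10.9 in cerebellum, and 1080 ± 44.5 (8 spots) and 1241 ± 39.7 (10 spots) in prefrontal cortex. The highest cerebellum spot, 204, was under the lowest prefrontal cortex spot, 1018. In the limma fit Fgf2 had a 9.43-fold lower level (log2 -3.24, SE 0.08, adjusted p = 0.00027), and -2.70 after normexp. Of 11 astrocyte and Bergmann glia markers, all well above background on every array, 5 were called higher and 5 lower in cerebellum (median -0.15). Their signals, summed before scaling, were 1005870 and 1060230 in cerebellum and 692320 and 707344 in prefrontal cortex. The array's 75th percentile was itself higher in cerebellum, by 0.36 (log2) in control and 0.42 in depressive pools. The part of these cells in the difference of Fgf2 was not tested.

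Igf1, insulin-like growth factor 1, and its receptor Igf1r differed less. Igf1 gave 4144 ± 25.1 (2 spots) and 4213 ± 57.9 in cerebellum, and 2545 ± 22.7 and 2950 ± 46.0 in prefrontal cortex. After scaling it was 0.34 higher in cerebellum in control and 0.10 in depressive pools. By limma Igf1 had 0.22 (95% interval -0.02 to 0.46, adjusted p = 0.084), which did not pass. It passed with median scaling (0.31), quantile normalization (0.26) and the mean over probes (0.29), at adjusted p of 0.0189, 0.0496 and 0.0448 in limma. The second Igf1 probe gave 0.48 and 0.25.

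Igf1r gave 536 ± 21.0 (10 spots) and 597 ± 20.9 in cerebellum, and 333 ± 13.7 and 380 ± 24.0 in prefrontal cortex. After scaling all cerebellum spots remained above all prefrontal cortex spots in control pools, and they overlapped in depressive pools. Fitted with limma, Igf1r had a 1.21-fold higher level in cerebellum (log2 0.28, SE 0.05, adjusted p = 0.0171), and the adjusted p was 0.0681 with dim genes kept. Both Igf1 and Igf1r thus had small positive values in both states.

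**Figure D2:**
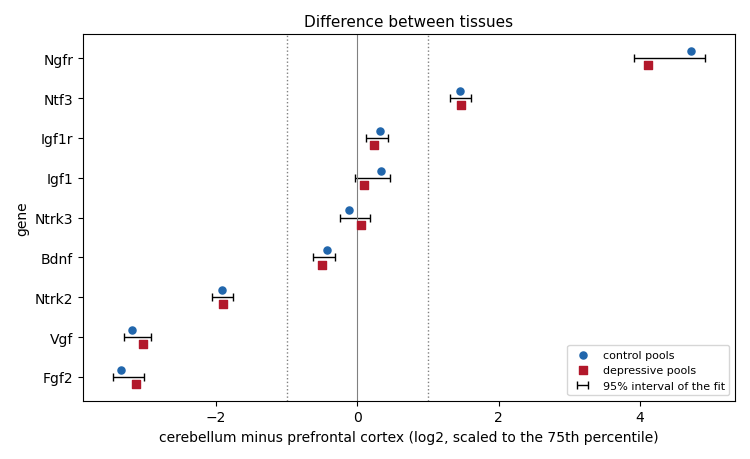
Difference of each gene between cerebellum and prefrontal cortex (log2, scaled to each array's 75th percentile), with circles for control pools, squares for depressive pools and whiskers for the 95% interval of the fit over both. Dotted lines mark 2-fold. Ngfr and Ntf3 lie beyond it on the cerebellum side and Ntrk2, Vgf and Fgf2 on the prefrontal cortex side, in both states.

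In control pools 5 of the 9 genes differed by 2-fold or more between tissues, where 24% of 12917 measured genes did. Of these, 2 were higher in cerebellum, Ngfr and Ntf3 (9.91% of all genes), and 3 lower, Ntrk2, Vgf and Fgf2 (14%). The same 5 genes differed by 2-fold or more in depressive pools, where 23.6% of 12678 genes did, 9.12% higher and 14.5% lower. In the fit 3 genes were called higher in cerebellum (Ntf3, Ngfr and Igf1r, against 34.7% of all genes) and 4 lower (Bdnf, Ntrk2, Vgf and Fgf2, against 37.8%). The median size of the difference in control pools, without its sign, was 1.46 for the 9 and 0.46 for all genes. Since the 9 were chosen with earlier results of these data known, these shares and sizes are no test of them as a set. Tissue differences thus ran in both directions among these genes, and among the receptors themselves.

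**Figure D3:**
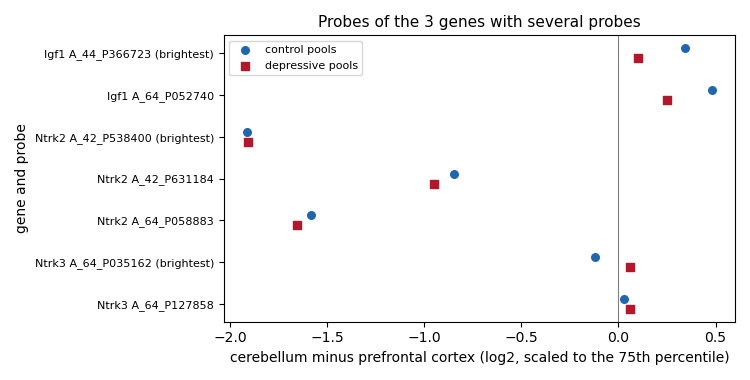
Difference between tissues (log2, scaled) for each probe of the genes that have several, with circles for control and squares for depressive pools. The Ntrk2 probes range from -0.84 to -1.91, all below 0, the Igf1 probes are all above 0, and those of Ntrk3 lie within 0.12 of 0.

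Other genes of the same pathways were counted from lists, against a median of -0.02 over all tested genes. Of all tested genes the fit called 34.7% higher and 37.8% lower in cerebellum, the shares to set beside each list count below. Of 9 receptors and sorting receptors of neurotrophins, 2 were called higher (Ngfr and, at a log2 difference of 0.59, Sorl1) and 5 lower in cerebellum, with a median of -0.79. Sorcs2, a partner of Ngfr in binding neurotrophin precursors, gave 2113 and 2507 in cerebellum and 15576 and 15912 in prefrontal cortex, and was 8.96-fold lower (log2 -3.16, SE 0.07). Sorcs1 was 4.23-fold and Sort1, sortilin, 3.89-fold lower. Ngfr and its co-receptors Sorcs2 and Sort1 thus differed in opposite directions between the tissues.

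Of 11 tested genes that process or release neurotrophins, 5 were called higher and 6 lower in cerebellum. Pcsk1 and Pcsk2, convertases of regulated secretory granules, were 6.51-fold and 3.75-fold lower, while Pcsk6, a convertase of the constitutive pathway, was 4.40-fold higher. Furin, which cleaves neurotrophin precursors in the Golgi, was 1.24-fold higher. Of 24 genes of neurotrophin signalling, 6 were called higher and 12 lower, against 34.7% and 37.8% of all genes. Rps6ka1, a ribosomal S6 kinase downstream of ERK, was 11.5-fold higher in cerebellum, and its relative Rps6ka2 2.90-fold lower. Shc3, a neuronal adaptor of Trk receptors, was 5.29-fold lower, on the same side as Ntrk2.

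Of 15 tested genes of the insulin-like growth factor system, 5 were higher and 8 lower in cerebellum. The binding proteins, which hold the factors outside cells, included the largest differences: Igfbp4 was 35.8-fold lower (log2 -5.16, SE 0.09) and Igfbp2 5.28-fold higher. Igf2, which in adult brain is made mainly by meninges and choroid plexus, was 4.92-fold higher. The list of meningeal markers holds Igf2 too, and the 6 tested choroid plexus markers were also higher in cerebellum, with a median of 5.10. Their part in the levels of Igf2 and Igfbp2 was not tested. Igf1 and Igf1r, at 1.17-fold and 1.21-fold, lay far inside this range.

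Of 21 tested fibroblast growth factor genes, 6 were higher and 11 lower in cerebellum, and Fgf2 had the largest difference of them. Fgf13, an intracellular member that binds sodium channels, was 6.48-fold lower, and Flrt2, a membrane protein that binds fibroblast growth factor receptors, 5.58-fold lower. Of 32 tested genes of other growth factor families, 10 were higher and 15 lower. The receptor Ret gave 1726 and 1748 in cerebellum and 39.9 and 35.4 in prefrontal cortex, 35.3-fold higher. Its prefrontal cortex signals were near those of Ngfr (31.1 and 43.4), and its size after normexp is not given here. Gfra2, one of the co-receptors of Ret, was 8.23-fold lower. Nrg2, a neuregulin that acts through ErbB receptors, was 3.55-fold higher, with signals of 48.2 and 45.7 in prefrontal cortex. Of 22 tested activity-regulated genes, 3 were higher and 16 lower in cerebellum, with a median of -0.99. Arc, a synaptic protein gene, was 8.05-fold and Egr1, a transcription factor gene, 7.66-fold lower, whereas Dusp5, a phosphatase of ERK, was 11.4-fold higher. Vgf and Bdnf lay on the side of most of these genes, where 37.8% of all genes were called. Bdnf was at -0.46 in the fit, and at -0.07 in control and -0.08 in depressive pools before scaling.

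**Figure D4:**
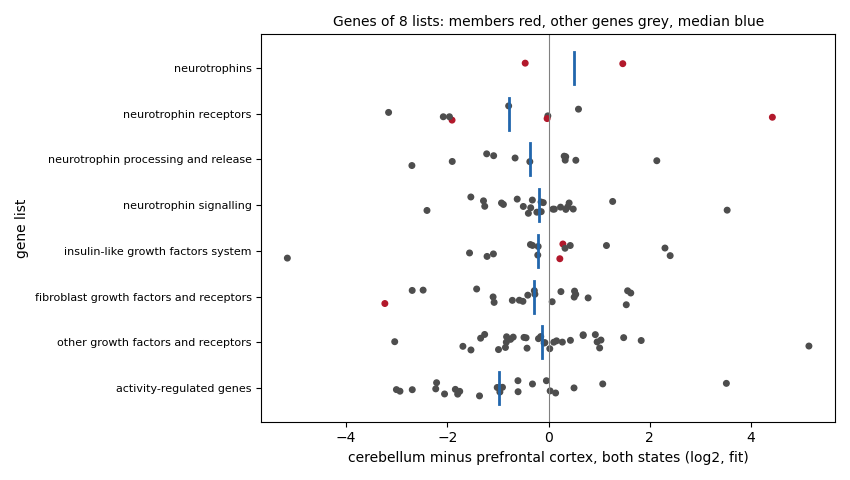
Difference between cerebellum and prefrontal cortex over both states (log2, from the fit) for every tested gene of 8 lists, with the followed genes in red (Vgf is in none of the lists), other genes in grey and the list's median as a blue bar. Activity-regulated genes have the lowest median, -0.99, and Ngfr (4.42) and Fgf2 (-3.24) stand at the edges of their lists.

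The pattern over the 4 arrays was compared with that of 2851 genes that varied by 2-fold or more, as the root mean square difference of log2 levels, each gene centred on its own mean. The genes most like Vgf were Sorcs2 (0.034), Gfra2 (0.039) and Nrsn1 (0.043). Those most like Ntrk2 were Tceal7 (0.012), Rasgef1a (0.017) and Cyria (0.018). Ngfr was nearest to Adamts18 (0.055) and Chn2 (0.10). Sorcs2 and Gfra2 were named above for the size of their tissue differences, and their closeness to Vgf rests on the same values. Fgf2 was nearest to Sema3c (0.051), Grm6 (0.063) and Adhfe1 (0.075), and Ntf3 to Gjd2 (0.034), Trim37 (0.035) and Gdpd2 (0.055). Over 4 arrays such likeness rests mostly on the size of the tissue difference. Bdnf, Ntrk3, Igf1 and Igf1r varied by under 2-fold over the arrays, and their nearest genes are not named here.

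The second question, the study's own, was whether these genes differ between depressive and control rats. Of the 9 genes 0 differed by 2-fold in either tissue, where 1.1% of 12680 measured genes did in cerebellum and 0.787% of 12572 in prefrontal cortex. In the limma fit of state with tissue as a block, 0 of 9 had an adjusted p under 0.05, as did 0% of all genes. At an unadjusted p under 0.05 there were 2 members, Ntf3 and Fgf2, and 7.49% of all genes. The smallest adjusted p among the 9 was 0.656. With normexp, limma called 5 genes of all and 0 of the 9.

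Bdnf gave a difference, depressive minus control, of -0.03 (SE between spots 0.03) in cerebellum and 0.03 (0.01) in prefrontal cortex. Its spots overlapped between states in both tissues. The limma fit gave a 95% interval from -0.16 to 0.16 (adjusted p = 0.994). That interval holds no spread between rats or between pools of the same group. It thus sets no bound on a difference between depressive and control rats. Ntrk2, the receptor of Bdnf, gave -0.08 and -0.09 on the brightest probe, but -0.07 and 0.04 on A_42_P631184, and -0.07 and 0.01 on A_64_P058883. The probes of Ntrk2 thus had the same sign in cerebellum and not in prefrontal cortex. Vgf gave 0.08 (0.10) and -0.07 (0.06), with overlapping spots in both tissues, and a 95% interval from -0.19 to 0.20 in the fit.

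Ntf3 gave -0.20 (SE 0.04) in cerebellum and -0.21 (0.11) in prefrontal cortex, and after scaling both spots of each depressive array were below those of its control. In the limma fit Ntf3 had -0.21 (95% interval -0.35 to -0.06, unadjusted p = 0.0194, adjusted p = 0.656). The adjusted p ranged from 0.512 to 0.86 over the alternatives other than the files as attached. Of 1025 genes of similar brightness, 31.8% differed as much in cerebellum and 20.5% in prefrontal cortex, so a difference of this size was common.

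Fgf2 was 0.34 higher (SE 0.05) in the depressive cerebellum pool, 1.27-fold, and 0.13 higher (0.03) in that of the prefrontal cortex. In cerebellum all 10 depressive spots, from 174 upward, lay above all 10 control spots, which reached 153. In prefrontal cortex the scaled spots overlapped. Of 1244 genes of similar mean level over the 4 arrays, 4.50% differed as much in cerebellum and 29.5% in prefrontal cortex. In cerebellum Fgf2 lay under that mean, at -4.87 and -4.53 (log2 to the 75th percentile), so the genes compared were mostly brighter there. Their median size of state difference in cerebellum was 0.10, against 0.14 for the dimmer genes compared with Ntf3. The 4.50% may thus overstate how rare the cerebellum difference was. Fitted with limma, Fgf2 had 0.24 (95% interval 0.01 to 0.46, unadjusted p = 0.0433, adjusted p = 0.656), and the adjusted p had the same range over alternatives as that of Ntf3. Fgf17, a related factor, gave 76.1 and 158 in cerebellum and 51.3 and 68.0 in prefrontal cortex, a difference of 0.93 and 0.34, and was not called either. Of 25 fibroblast growth factor genes measured in cerebellum, 8 were above 0 (median -0.02), and of 23 in prefrontal cortex, 16 (median 0.04).

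Ngfr gave -0.19 (SE 0.02) in cerebellum and 0.41 (0.12) in prefrontal cortex, the largest state difference of the 9. The latter came from signals of 31.1 and 43.4 with overlapping spots, and was 0.07 after normexp. Ntrk3 gave 0.18 (0.04) in cerebellum on its brightest probe, as large as in 3.79% of 792 genes of similar level, and 0.02 on its second probe. In prefrontal cortex both Ntrk3 probes were at or near 0, at -0.0046 and -0.01.

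Igf1 gave -0.10 (SE 0.02) in cerebellum and 0.14 (0.02) in prefrontal cortex, and its second probe -0.15 and 0.08. Both probes were lower in the depressive pool of the cerebellum and higher in that of the prefrontal cortex. In prefrontal cortex 11.3% of 1420 genes of similar level differed as much as Igf1. Igf1r gave 0.03 (0.02) and 0.12 (0.03). Of the other genes of this system, Igfbp2 had 0.39 in cerebellum and 0.78 in prefrontal cortex, and Igf2 0.10 and 0.96. Neither was called in the limma fit (adjusted p of 0.656 and 0.685). Of 17 genes of this system 6 were above 0 in cerebellum (median -0.04) and 13 in prefrontal cortex (median 0.04). Among adaptors of Trk receptors, Frs3 gave -0.25 and -0.30 and Shc3 -0.24 and -0.19. Among activity-regulated genes, Nr4a2 gave 0.53 and 0.25 and Nr4a3 0.62 and 0.11. Of other growth factor genes Pdgfb gave 0.35 and 0.24, at signals from 32.5 to 82.8, and Erbb4 -0.36 and -0.02. These genes were named for the largest state differences of their lists. Above 0 were 7 of 24 signalling genes in cerebellum (median -0.05) and 11 of 24 in prefrontal cortex (median -0.01). For activity-regulated genes it was 11 of 22 (median -0.02) and 16 of 23 (0.04). For other growth factor genes it was 15 of 35 (-0.02) and 18 of 34 (0.01). In the lists 0 genes were called by state.

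**Figure D5:**
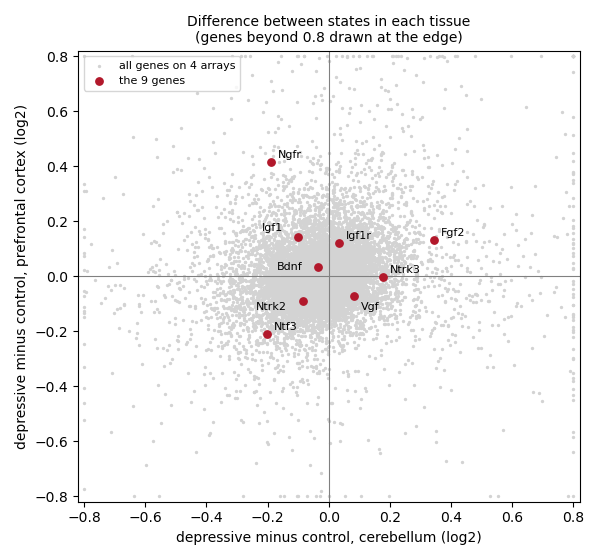
Difference between depressive and control pools in cerebellum (x axis) and prefrontal cortex (y axis), log2 after scaling, for all genes well above background on 4 arrays (grey) and the 9 genes (red). Ngfr, Fgf2 and Ntf3 lie farthest from the centre, and all 9 lie within 2-fold.

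Markers of other cells and tissues differed between the depressive and control pools. All 6 blood cell markers were above 0 in both tissues (medians of 1.62 and 1.38). Their signals, summed before scaling, were 11287 and 53540 in cerebellum and 15159 and 63646 in prefrontal cortex. The array's 75th percentile was itself higher in the depressive pool, by 0.12 (log2) in cerebellum and 0.07 in prefrontal cortex. Of 12 meningeal markers 9 were above 0 in cerebellum (median 0.14) and 11 in prefrontal cortex (median 0.76). Choroid plexus markers summed to 744509 and 809102 in cerebellum, with all 10 well above background, and to 30069 and 11205 in prefrontal cortex, with 7 and 6. All 10 oligodendrocyte markers were above 0 in prefrontal cortex, with a median of 0.33, and 4 of 10 in cerebellum, with a median of -0.04. Pituitary markers summed to 2878 and 1718 in cerebellum and 1392 and 1386 in prefrontal cortex before scaling. Of 8 measured in cerebellum 2 were above 0 (median -0.61), and of 6 in prefrontal cortex 2 (median -0.08). Microglia and endothelial markers had medians between -0.07 and 0.11. The part of these cells in the state differences of Fgf2, Ngfr, Igf1 and Igf2 was not tested.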

How the data were processed

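RNA of 4 rats per group was pooled and 400 ng of it entered the Cy3 labelling, per the labels' protocols. Agilent Feature Extraction 10.7.1.1 read the scans (protocol GE1_107_Sep09, design build rn4, 1 slide), per the file headers. The authors' deposited scanner files give each spot's intensity, after subtraction of background by that software, together with 0 or 1 flags. The deposited value table holds linear intensities that are proportional to these (medians from 0.324 to 0.332), and how its scale was chosen is not known.

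Each column of the value table was paired with the scanner file that correlates best with it. Without outlier spots, log2 signals were averaged per probe and set against the 75th percentile of the array's non-control spots, which was 4009 and 4365 in cerebellum (control, depressive) and 3119 and 3274 in prefrontal cortex. RefSeq accessions without versions named 18355 of 30367 probes (GRCr8). A probe counted as well above background where 50% of its spots were so, and a gene where 1 of its probes was. A limma 3.58.1 fit (lmFit and eBayes, R 4.3.3) of tissue and state used the 11623 genes well above background on 4 arrays. It was two-sided, with Benjamini-Hochberg adjustment over all of them, and was checked on simulated data. Differences are cerebellum minus prefrontal cortex, or depressive minus control. The number of arrays limits the precision.

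The members and gene lists were chosen with earlier results of these data known. Named were all members and, per list, the 3 genes with the largest tissue and the 2 with the largest state difference. Sort1 and Ntf4 were added after their values were seen. In all, 8 alternatives were tried. Normexp (offset 50) used the median signal of a spot in place of its mean. Some items that the naming rule gives are not reported here.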

Additional observations from a re-analysis of the deposited data

Results flagged for a closer look

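For 5 genes the depressive pool differed from the control pool in opposite directions in cerebellum and prefrontal cortex, and for Ntrk3 the tissues also differed in opposite directions in the control and depressive pools. With 1 array per group these contrasts were not tested. By state, the log2 differences in cerebellum and prefrontal cortex were -0.0338 and 0.0318 for Bdnf, 0.1765 and -0.0046 for Ntrk3, -0.1892 and 0.4131 for Ngfr, 0.0814 and -0.0712 for Vgf, and -0.0993 and 0.1431 for Igf1. Both probes of Igf1 had the same pair of signs. The value of Ngfr in prefrontal cortex was 0.07 after normexp, that of Bdnf in cerebellum 0.01 with median scaling, and that of Vgf in prefrontal cortex 0.02 after quantile normalization. The value of Ntrk3 in prefrontal cortex was 0.03 after quantile normalization and 0.0032 after normexp, so its signs were then the same in both tissues. By tissue, Ntrk3 was at -0.1217 in control and 0.0594 in depressive pools, and at 0.04 and 0.21 after quantile normalization.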

How the results depend on the processing

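No paired analysis was possible because each group is 1 array and the labels give no replicate numbers, beyond the state and tissue blocks already in the fit, and leaving out an array leaves no residual degree of freedom. Under quantile normalization, median scaling, normexp, the value table, the mean over probes, outlier spots kept and no filter on dim probes, the members called ranged from 6 to 8 for tissue (7 as printed) and were 0 for state. Those at 2-fold between tissues ranged from 4 to 5 in each state, and 0 were at 2-fold between states. Quantile normalization moved the median tissue difference of all genes from -0.02 to 0.09. Scanner files taken as attached exchange tissue and state: 0 members were then called by tissue and 7 by state, 0 differed by 2-fold between tissues in either state, and 5 between states in each tissue. The fitted tissue differences of Bdnf (0.00099), Ntrk2 (0.0878), Ngfr (-0.11), Igf1 (-0.02) and Igf1r (-0.0771) then changed sign, as did the state differences of Bdnf (0.46), Ntrk2 (1.91), Ngfr (-4.42), Igf1 (-0.22) and Igf1r (-0.28). Between single arrays the tissue differences of Bdnf (0.03, control), Ntrk2 (0.0843 and 0.0914), Ngfr (-0.41, depressive), Vgf (0.0712, depressive), Igf1 (-0.14, depressive) and Igf1r (-0.03 and -0.12) did so, and state differences of the same 6 genes. This follows from the exchange of arrays itself. Signals near background limit Ngfr, Ntf3, Ret and Nrg2 in prefrontal cortex, and Pdgfb in both tissues.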
